A study of Homo sapiens with 12 samples.

Results

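Broad H2A.Zac domains were the regions of 2500 bp or more in the deposited lists of acetylated H2A.Z, on chromosomes 1 to 22 and X. Of 94211 H2A.Zac regions on these chromosomes, 2553 (2.71%) were this wide, and they covered 8.39 Mb. The lists come from K562, a human chronic myeloid leukaemia cell line, in which the endogenous EP400 protein carried a dTAG degron and was degraded with 500 nM dTAGV-1 for 24 h. Both lines carried the degron and received the degrader, and they differed in the EP400 transgene at the AAVS1 safe harbour locus: WT EP400, or ΔTRRAP EP400, in which the SANT and HD domains are deleted. Each line was 1 clone, so the transgene and the clone cannot be told apart. ChIP-seq for H2A.Z, for H2A.Zac and of input chromatin was done with 2 biological replicates per line, 12 libraries in all. The replicates were merged before the lists were made, so no value per replicate and no read count stood in the files, the depth is unknown, and no test between the lines was possible from them.

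H2A.Z is a variant of histone H2A that is placed in nucleosomes next to active promoters and at enhancers. EP400 is the motor of the TIP60 complex, which exchanges H2A for H2A.Z, and KAT5, the acetyltransferase of the same complex, acetylates H2A.Z and H4. TRRAP is a large scaffold protein shared by the TIP60 and SAGA complexes. Wide stretches of acetylated chromatin are found at strongly used promoters and at clusters of enhancers, where several neighbouring nucleosomes carry the mark.

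The lists name each region as higher in WT (lost in ΔTRRAP), higher in ΔTRRAP (gained) or similar in both (unchanged), from a log10 likelihood ratio between the lines with a cutoff of 3. The domains were chosen by their measured width in these lists, which come from the comparison of the lines. Class, width and likelihood ratio are therefore given as descriptions, with no test. Sequences that lie inside domains of each direction are printed first, because the loci return below. The first 4 are the 250 bases just upstream of the start site (TSS) of CCND1 and PIK3CD, which lay in lost domains, and of DACH1 and GNG11, which lay in gained domains. They are from the hg38 genome, read 5′ to 3′ in the direction of the gene, and capitals mark CG dinucleotides.
CCND1, chr11:69640906-69641155, plus strand: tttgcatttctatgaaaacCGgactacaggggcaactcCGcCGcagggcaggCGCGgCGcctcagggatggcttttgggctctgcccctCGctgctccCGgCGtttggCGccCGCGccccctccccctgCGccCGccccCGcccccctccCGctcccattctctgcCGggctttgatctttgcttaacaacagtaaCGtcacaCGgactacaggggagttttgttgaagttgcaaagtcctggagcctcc
PIK3CD, chr1:9629639-9629888, plus strand: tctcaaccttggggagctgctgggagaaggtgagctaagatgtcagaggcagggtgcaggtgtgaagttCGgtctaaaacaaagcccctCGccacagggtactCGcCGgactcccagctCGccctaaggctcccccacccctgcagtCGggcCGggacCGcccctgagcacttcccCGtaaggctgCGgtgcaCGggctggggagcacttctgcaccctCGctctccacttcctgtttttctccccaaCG
DACH1, chr13:71867205-71867454, minus strand: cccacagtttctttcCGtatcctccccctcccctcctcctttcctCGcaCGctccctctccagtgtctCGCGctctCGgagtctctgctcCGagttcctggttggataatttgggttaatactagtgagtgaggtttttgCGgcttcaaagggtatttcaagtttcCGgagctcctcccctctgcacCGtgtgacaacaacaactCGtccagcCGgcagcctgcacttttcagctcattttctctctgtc
GNG11, chr7:93921485-93921734, plus strand: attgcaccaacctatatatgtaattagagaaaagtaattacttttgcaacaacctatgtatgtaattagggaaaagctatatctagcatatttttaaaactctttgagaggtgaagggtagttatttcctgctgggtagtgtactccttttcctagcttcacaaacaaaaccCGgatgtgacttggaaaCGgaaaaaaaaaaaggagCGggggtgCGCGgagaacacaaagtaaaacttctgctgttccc

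CCND1 held 19 CG dinucleotides in this window, PIK3CD 13, DACH1 12 and GNG11 5. The next 3 sequences are the central 250 bases of domains more than 10 kb from any TSS, the 2 widest gained domains (near CPEB4 and LINC01485) and a wide lost domain that overlapped no annotated gene (nearest gene ENSG00000289364). Capitals mark AGATAA or its reverse complement TTATCT, the letters bound by GATA factors, and TGANTCA, the letters bound by AP-1 factors.
Gained, near CPEB4, chr5:173857378-173857627, plus strand: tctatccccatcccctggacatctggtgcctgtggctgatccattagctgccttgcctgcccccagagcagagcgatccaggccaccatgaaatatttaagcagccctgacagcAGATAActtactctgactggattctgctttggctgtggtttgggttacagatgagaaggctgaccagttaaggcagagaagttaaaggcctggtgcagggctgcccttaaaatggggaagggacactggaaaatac
Gained, near LINC01485, chr5:173839147-173839396, plus strand: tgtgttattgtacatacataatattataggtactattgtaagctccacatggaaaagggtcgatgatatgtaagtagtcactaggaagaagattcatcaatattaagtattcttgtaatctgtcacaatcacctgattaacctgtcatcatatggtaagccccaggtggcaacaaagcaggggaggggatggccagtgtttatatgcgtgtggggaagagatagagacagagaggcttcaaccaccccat
Lost, near ENSG00000289364, chr2:16440147-16440396, plus strand: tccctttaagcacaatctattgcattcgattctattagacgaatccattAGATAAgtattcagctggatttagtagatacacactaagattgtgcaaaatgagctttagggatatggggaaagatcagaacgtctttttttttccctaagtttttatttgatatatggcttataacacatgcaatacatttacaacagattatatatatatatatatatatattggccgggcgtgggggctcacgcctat

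The gained domain near CPEB4 and the lost domain held 1 GATA match each in these bases, and the gained domain near LINC01485 held neither motif.

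Of the broad domains, 599 (23.5%) were lost, 849 (33.3%) were gained and 1105 (43.3%) were unchanged in ΔTRRAP. Among all H2A.Zac regions the shares were 25.9% lost, 26.2% gained and 47.9% unchanged, so 52.1% were changed, against 56.7% of the broad domains. Gained domains thus made up 58.6% of the changed broad domains (849 of 1448, 95% Wilson interval 56.1 to 61.1%), and the share stayed between 56.8% and 59.7% when any 1 chromosome was left out. These intervals cover counting error only. Median widths were alike, at 3008 bp for lost, 3089 bp for gained and 2943 bp for unchanged domains. The widest domain of each class measured 7745 bp among lost, 22000 bp among gained and 7109 bp among unchanged domains. Changed regions lie above the cutoff by definition. Likelihood ratios were at least 6.60 in broad lost domains (median 17.3) and at least 5.17 in broad gained domains (median 13.5). The highest ratio of a broad unchanged domain was 1.62. In regions under 2500 bp the medians were 8.14 for lost and 6.72 for gained regions. The highest ratios there, 188 and 126, exceeded those of broad lost and gained domains, 120 and 107.

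The mix of classes varied with width, and not in 1 direction. In the narrowest regions, from 250 to under 500 bp, gained regions were 53.6% of changed regions and 54.8% of regions were changed. The gained share was 47.5% from 500 to under 1000 bp and 53.1% from 2000 to under 2500 bp. Within the broad domains it was 55.9% from 2500 to under 3000 bp, 61.5% from 3000 to under 4000 bp and 60.2% at 4000 bp or more. In the same 3 bins the changed share was 53.2%, 57.0% and 68.5% of domains. Thus among the 359 domains of 4000 bp or more 98 were lost, 148 gained and 113 unchanged. At the threshold itself the classes were as follows. The 420 regions up to 100 bp under the threshold were 97 lost, 99 gained and 224 unchanged (46.7% changed), and the 368 domains less than 100 bp above it were 89 lost, 97 gained and 182 unchanged (50.5% changed).

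**Figure D1:**
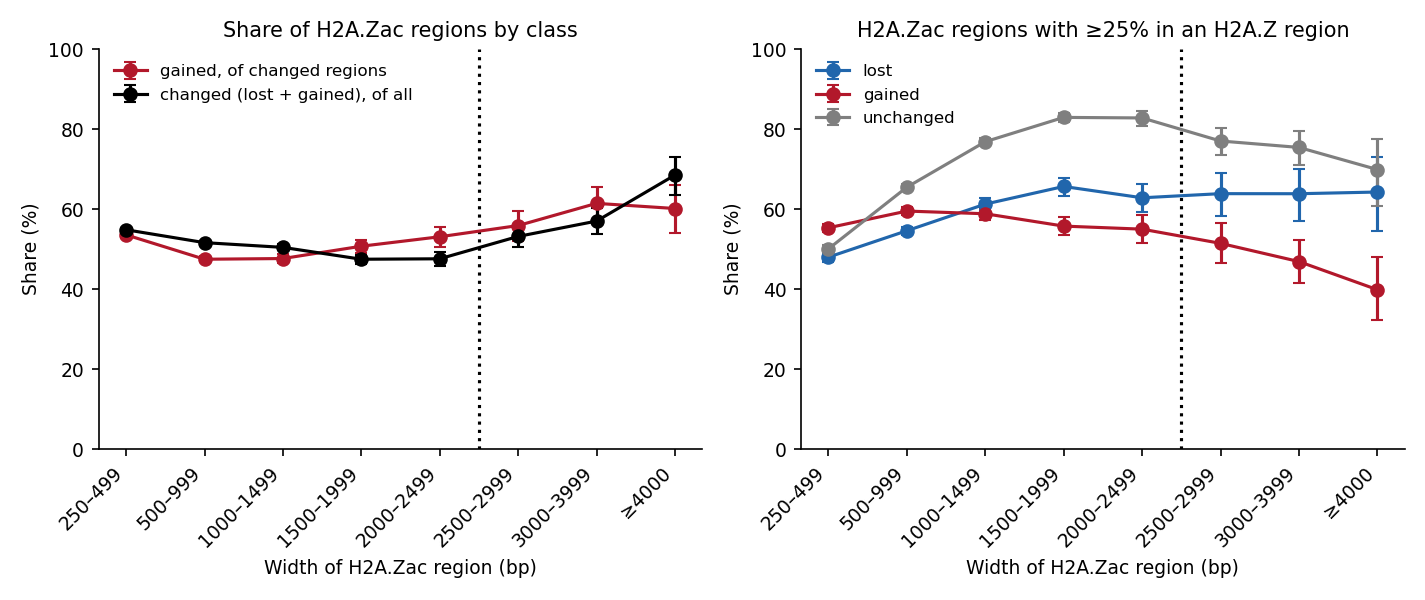
Shares of H2A.Zac regions (vertical axis, %) by region width (horizontal axis, bp), with 95% Wilson intervals as bars; the dotted line marks 2500 bp. Left, the gained share of changed regions and the changed share of all regions, both highest above 3000 bp; right, the share of each class with at least 25% of its length in an H2A.Z region, which in gained regions falls to 39.9% at 4000 bp or more.

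The borders of the classes were not always clean. Regions of different classes overlapped or adjoined in places. A region of another class lay within 150 bp of 23.04% of lost, 38.5% of gained and 61.5% of unchanged broad domains. No lost domain overlapped a gained region, and no gained domain a lost one. When regions of any class within 150 bp of each other were joined first and named by the class with most bases, 6225 domains reached 2500 bp, of which only 1407 came from a single region. Under that definition 43.4% of domains were changed, against 56.7% as listed, and the gained share of changed domains was 61.3%.

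Broad lost and gained domains lay mostly more than 1 kb from a TSS, and broad unchanged domains were more often near one. A TSS of GENCODE release 44 lay within 1 kb of 158 lost domains (26.4%, 23.01 to 30.05%), 253 gained domains (29.8%, 26.8 to 33.0%) and 585 unchanged domains (52.9%, 49.99 to 55.9%). The median distance to the nearest TSS was 6.85 kb for lost, 8.89 kb for gained and 0.43 kb for unchanged domains. More than 10 kb from any TSS were 41.6% of lost, 47.5% of gained and 26.0% of unchanged domains. In regions under 2500 bp, 21.6% of lost, 38.4% of gained and 37.8% of unchanged regions lay within 1 kb of a TSS, and the intervals of gained (37.8 to 39.0%) and unchanged regions (37.4 to 38.3%) overlapped. The shares were not particular to the broad domains. From 2000 to under 2500 bp, 28.8% of gained and 57.8% of unchanged regions already lay near a TSS. Within the broad domains, the share of unchanged domains near a TSS was 56.6% from 2500 to under 3000 bp, 50.4% (45.5 to 55.3%) from 3000 to under 4000 bp and 42.5% at 4000 bp or more. Among changed regions away from TSSs, gained ones made up 57.5% (54.4 to 60.4%) of the broad and 44.04% (43.5 to 44.6%) of the narrower regions. Near TSSs the shares were 61.6% and 64.0%, and their intervals overlapped.

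**Figure D2:**
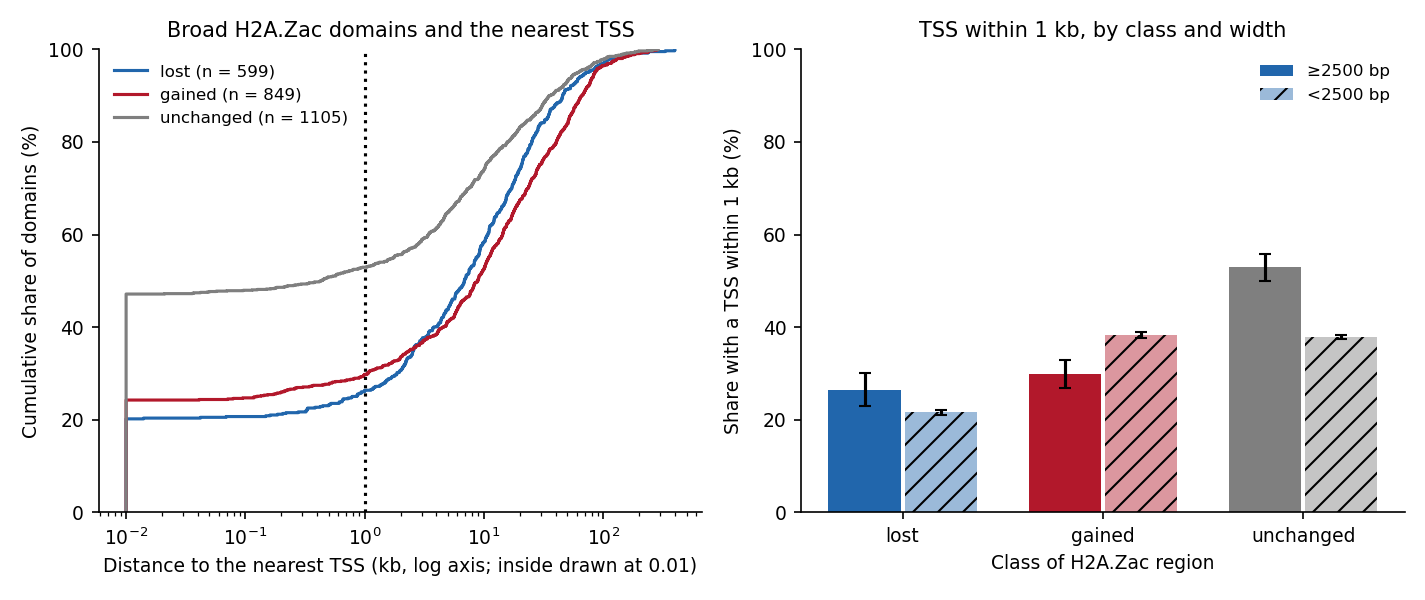
Left, cumulative share of broad H2A.Zac domains (%) against distance to the nearest TSS (kb, log axis), for 599 lost, 849 gained and 1105 unchanged domains, with domains that contain a TSS drawn at 0.01 kb. Right, share of regions with a TSS within 1 kb (%) for regions of at least 2500 bp (solid) and under 2500 bp (hatched), with 95% Wilson intervals; the unchanged broad domains stand highest at 52.9%.

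Base composition differed with class as well. The median GC content was 47.9% in lost, 44.6% in gained and 49.4% in unchanged broad domains. Median CG density was 14.1, 11.7 and 19.5 per kb, where chromosomes 1 to 22 and X had 10.02 per kb overall. Near TSSs the medians were 19.2 per kb in lost, 33.9 in gained and 42.5 in unchanged domains. Lost promoter domains were thus the poorest in CG dinucleotides. So were lost regions under 2500 bp near TSSs, with 28.6 per kb, against 49.1 in gained and 48.1 in unchanged regions. Away from TSSs the medians were 12.9, 9.60 and 11.2 per kb in broad domains and 15.5, 12.1 and 14.7 per kb in the narrower regions.

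The 3 classes also covered genes differently. No annotated gene overlapped 40.9% of lost domains, against 22.5% of gained and 21.9% of unchanged domains. Genes covered 49.7% of lost, 71.4% of gained and 64.1% of unchanged bases in broad domains. The order was the same in regions under 2500 bp, with 53.6%, 72.9% and 66.9%. Domains that overlapped a protein-coding gene and held no TSS of any gene were most common among gained domains, with 40.3%. The shares were 23.9% of lost and 20.8% of unchanged domains. Exons made up 7.82% of lost, 11.2% of gained and 17.0% of unchanged bases, against 10.3%, 17.8% and 18.2% in regions under 2500 bp. A protein-coding TSS lay in 73 lost (12.2%), 129 gained (15.2%) and 407 unchanged domains (36.8%). Among the narrower regions the shares were 3.43%, 11.1% and 14.7%. A longer region can hold more TSSs, and median widths were 3001 bp for broad domains and 692 bp for narrower regions. The part of width in these shares was not tested. The broad domains held the TSSs of 727 of 19962 protein-coding genes (3.64%), 79 in lost, 168 in gained and 480 in unchanged domains. Where a domain held the TSS of exactly 1 protein-coding gene, it reached further into the gene than upstream in 40 of 67 lost, 67 of 94 gained and 196 of 339 unchanged domains. In gained domains the median extent was 961.5 bp upstream and 2022 bp downstream, compared with 1259 and 1847 bp in lost domains.

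Among the widest lost domains over a protein-coding TSS were those at KCNQ5, a potassium channel gene (5742 bp), and at TNS4, which encodes a tensin of focal adhesions (5405 bp). EREG, which encodes the EGF receptor ligand epiregulin, followed with 5294 bp, and GPR85, an orphan receptor gene, with 5271 bp. EPS8L3 (5089 bp), the urea cycle gene ASS1 (4922 bp) and PIK3CD (4723 bp), which encodes a catalytic subunit of PI3 kinase, came next. The highest ratios among lost promoter domains were 51.9 at GPR85, 48.2 at PIK3CD, 45.3 at TNS4, 42.9 at GPR132 and 40.4 at S100P. These loci differed in the total H2A.Z below the acetylation. The PIK3CD domain was covered to 94.3% by lost H2A.Z and the GPR85 domain to 69.9%. Unchanged H2A.Z covered more than lost H2A.Z in the domains at KCNQ5 (48.7% and 27.9%) and EREG (42.4% and 17.6%). No H2A.Z region was listed in the domains at TNS4, GPR132 and S100P. The lists hold only regions that passed the filters of the authors, so an unlisted stretch need not lack H2A.Z. The CCND1 domain, over the start of the cyclin D1 gene, measured 3386 bp with a ratio of 38.3, and lost H2A.Z covered 58.5% of it.

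The widest gained domain over a protein-coding TSS lay at GPC6, a glypican gene, with 6976 bp and a ratio of 19.2, and gained H2A.Z covered all of it. PLD1, a phospholipase D gene (6900 bp), QKI, which encodes an RNA-binding protein (6823 bp), and HMMR, which encodes a hyaluronan receptor that also acts at the mitotic spindle (6277 bp), came next. The HMMR domain also held the TSS of NUDCD2. They were followed by the histone gene H4C2 (5698 bp), VWDE (5226 bp), IGF2BP3, which encodes an mRNA-binding protein (5122 bp), and SPESP1 (5037 bp), whose domain also held the TSS of ANP32A. The highest ratios among gained promoter domains were 71.8 at CD109, which encodes a membrane co-receptor of TGF-beta, 70.0 at GNG11, a G protein gamma subunit gene, 57.7 at the metalloprotease gene ADAM19, 56.0 at TAF11L5 and 53.7 at DACH1, which encodes a transcriptional corepressor. Gained H2A.Z covered 97.5% of the GNG11 domain and 31.6% of the DACH1 domain, and no H2A.Z region was listed in the CD109 domain. Unchanged H2A.Z covered 9.63% of the DACH1 domain, including the TSS. Among the widest gained domains, unchanged H2A.Z covered more than gained H2A.Z at SPESP1 (61.6% and 25.9%) and IGF2BP3 (41.7% and 26.4%). Gained H2A.Z covered more at GPC6, PLD1, QKI, HMMR and VWDE. TAF11L5 belongs to a family of near-identical copies, and reads may not be assigned uniquely there.

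The widest unchanged domains over a protein-coding TSS lay at SAMD13 (6257 bp), ANKRD13B (5616 bp, with the TSS of GIT1 in the same domain) and MARCKS (5172 bp), which encodes a substrate of protein kinase C. DDR1, a collagen receptor gene (4893 bp), THUMPD2 (4817 bp), MAML3, a Notch coactivator gene (4782 bp), ZNF131 (4754 bp) and the phosphatase gene DUSP14 (4644 bp) followed. All 8 held unchanged H2A.Z, from 45.003% of the domain at DDR1 to all of it at THUMPD2 and MAML3.

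**Figure D3:**
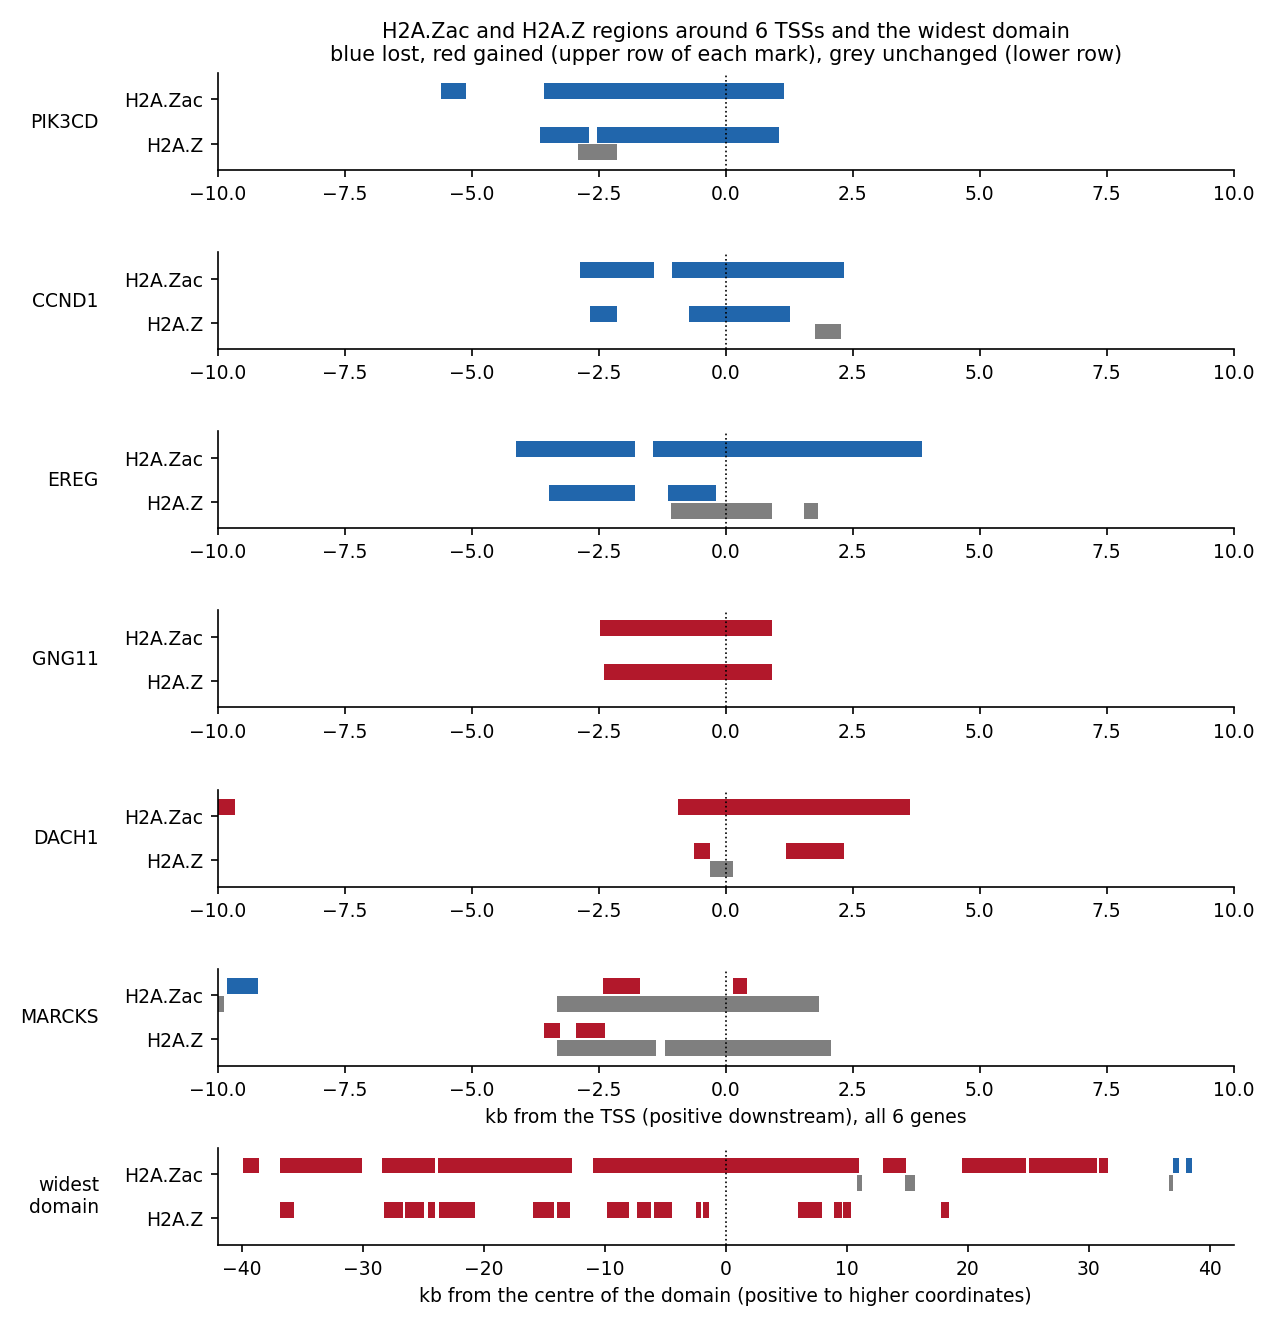
Listed H2A.Zac and H2A.Z regions around 6 TSSs (horizontal axis, kb from the TSS, positive downstream) and around the centre of the widest gained domain (kb from its centre). Blue bars are lost, red gained and grey unchanged regions; H2A.Z under the lost domains of PIK3CD and CCND1 was mostly lost, unchanged H2A.Z covered 42.4% of the lost EREG domain, H2A.Z under the GNG11 domain was gained over 97.5% of its length, and gained H2A.Z covered 39.0% of the widest domain in separate pieces.

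The widest domains of all lay away from promoters. The gained domain of 22000 bp on chromosome 5 (likelihood ratio 46.6) lay 19.8 kb from the TSS of CPEB4, an mRNA-binding protein gene, and overlapped no annotated gene. It held 8 gained H2A.Z regions that together covered 39.0% of its length. It was 1 of 8 broad domains within 200 kb, each at most 100 kb from the next, which were all gained and summed to 60.9 kb. The second widest, 11126 bp with a ratio of 39.0, was in the same group, and the third, 10396 bp within the non-coding gene LINC03000 on the same chromosome, was covered to 48.0% by gained H2A.Z. The widest lost domains were 7745 bp within WDR86 (ratio 18.7), 7415 bp on chromosome 7 some 20.1 kb from ENSG00000289630 (ratio 71.4) and 7144 bp near ENSG00000289364 (ratio 63.5). Lost H2A.Z covered 25.04% of the first and 79.4% of the second, and none was listed in the last. The widest unchanged domains away from TSSs lay within the non-coding gene LINC02580 (7109 bp) and near ENSG00000289439 (6842 bp) and LINC02532 (6169 bp).

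Broad domains were also counted in groups of neighbours. With a limit of 100 kb between neighbours, 1124 domains (44.03%) fell into 432 groups of 2 or more. In 216 of these groups at least 2 domains were changed, and 76 of the 216 had lost and no gained domains, 110 had gained and no lost domains, and 30 had both. Groups of 1 direction could also hold unchanged domains, and the same count was not made for narrower regions. Within single genes, CDH23, which encodes a cadherin of sensory hair cells, held the most, 7 domains of 30.9 kb in all, each lost, with likelihood ratios from 14.4 to 39.96. NEBL, which encodes a nebulin-like actin-binding protein, and SMYD3, a methyltransferase gene, held 5 gained domains each. DLGAP1 held 4 gained and 1 unchanged domain. ASIC2, DCHS2 and GPC6 held 4 gained domains each. GSE1, MYO3B, NFIA and ROR2, with 4 or 5 domains each, held more than 1 class. These genes are long, from 260 kb (DCHS2) to 1181 kb (GPC6). No protein-coding gene had its TSS in more than 1 broad domain, but each gene was given 1 TSS, which left little room for another outcome. Neighbouring domains share their surroundings and are not independent of each other.

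Replication-dependent histone genes formed a further group, chosen after the values were seen. Of 69 such genes, which are expressed in S phase and lie mainly in clusters on chromosomes 6 and 1, 20 had their TSS in a broad domain, where the share over all protein-coding genes was 3.64%. These were 12 domains, 10 of them on chromosome 6, and all 12 were gained, whereas 25.4% of all broad domains near a TSS were gained. On chromosome 6, 103 broad domains of any kind were gained, 32 lost and 76 unchanged. The group of neighbours around H4C2 held 6 gained and 5 unchanged domains, and that around H2AC15 held 3 and 4. Neighbouring histone domains are not independent of each other. The 12 histone domains measured 2595 to 5698 bp, with likelihood ratios from 9.78 to 17.2, and H4C2 had the widest. At 7 of the 12, including H4C2, H4C5, H2BC11 and H2AC11, no H2A.Z region was listed, and the highest coverage by H2A.Z was 40.3%, at H2BC18 and H3C13. Of the 68 H2A.Zac regions of any width within 1 kb of a histone TSS, 37 were gained, 29 unchanged and 2 lost, where 29.4% of all H2A.Zac regions near a TSS were gained.

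Total H2A.Z was listed under most broad domains, and least often under gained ones. At least 25% of the length lay in an H2A.Z region in 63.9% of lost (60.0 to 67.7%), 47.7% of gained (44.4 to 51.1%) and 75.7% of unchanged domains (73.1 to 78.2%). No base of H2A.Z was listed in 26.7% of lost, 37.9% of gained and 17.4% of unchanged domains, which does not show that H2A.Z was absent there. The share with H2A.Z in gained regions was 59.5% from 500 to under 1000 bp and 39.9% at 4000 bp or more, while in lost regions it was 54.6% and 64.3%. Gained domains had the lowest share at both positions. Near TSSs the shares were 74.7% for lost, 60.9% for gained and 86.2% for unchanged domains, and away from them 60.1% (55.5 to 64.6%), 42.1% (38.2 to 46.1%) and 64.04% (59.8 to 68.05%), where the intervals of lost and unchanged domains overlapped.

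The class of the H2A.Z was then compared with that of the acetylation. Of all H2A.Z regions 19.9% were lost and 14.1% gained (34% changed), and 66% were unchanged. Lost H2A.Z covered at least 25% of 314 lost domains (52.4%), gained H2A.Z of 273 gained domains (32.2%), and unchanged H2A.Z of 827 unchanged domains (74.8%). In regions under 2500 bp the same shares were 28.0%, 18.2% and 62.6%. Unchanged H2A.Z covered at least 25% of 20.03% of lost and 20.02% of gained broad domains. By the same rule it covered 36.8% of lost and 46.9% of gained narrower regions, where it was the more frequent class. Counting any shared base, unchanged H2A.Z lay under 46.7% of lost and 38.99% of gained broad domains, and under 43.1% of lost and 52.2% of gained narrower regions, so for lost regions the order of broad and narrower turned with the rule. In all 587 changed domains with changed H2A.Z over at least 25% of the length, both marks went in the same direction. Counting any shared base, they did so in 804 of 805, and the exception was a gained domain of 5778 bp near RPL12P2, of which lost H2A.Z covered 2.51%. This held equally for regions under 2500 bp, with the same direction in 11007 of 11020 at 25% of the length and in 12075 of 12109 for any shared base. H2A.Z and H2A.Zac were measured in the same lines with the same inputs, so the lists are not independent.

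**Figure D4:**
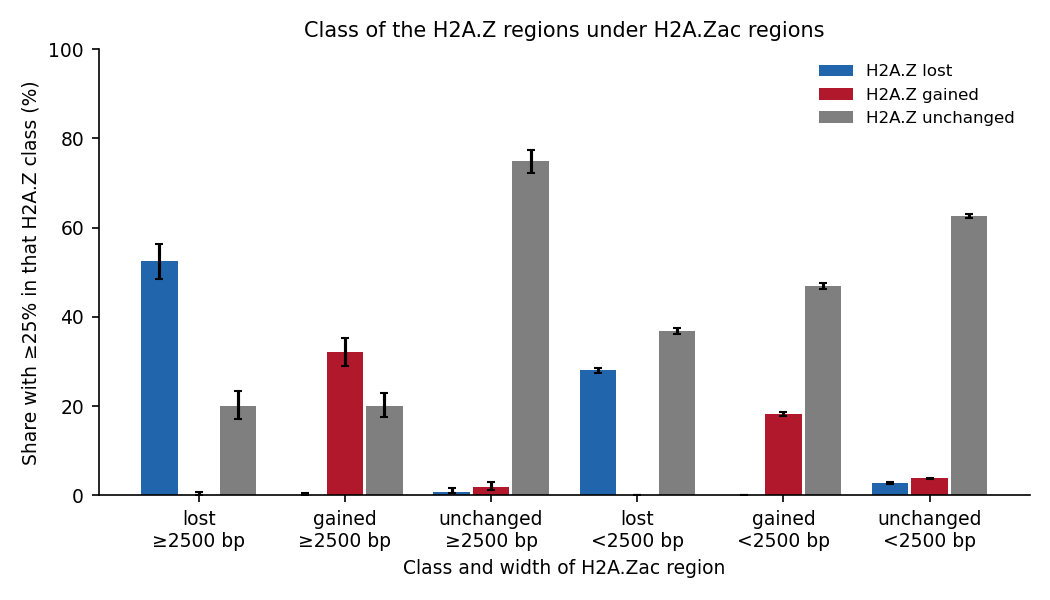
Share of H2A.Zac regions (%, with 95% Wilson intervals) with at least 25% of the length in lost, gained or unchanged H2A.Z regions, by H2A.Zac class and width. Lost H2A.Z under lost broad domains reached 52.4%, gained H2A.Z under gained broad domains 32.2%, and the opposite direction was at 0 in both.

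Over all protein-coding genes, 727 of 19962 (3.64%) had the TSS in a broad domain, 79 lost, 168 gained and 480 unchanged, and the counts for the gene lists are to be read against these. Among 20 erythroid and megakaryocytic transcription factor genes, TAL1, LMO2 and KLF1 had one, and all 3 were unchanged. Of 28 genes of haem synthesis, globins and the red cell membrane, HBZ, GYPC and EPB41 had one, also unchanged. Among 32 genes of the MYC network and G1 cyclins, the CCND1 domain was lost and those of MXI1, MNT, CCNE1 and CDK6 were unchanged. Of 26 STAT5 and BCL2 family genes, STAT5A and STAT5B shared 1 gained domain of 2911 bp, with gained H2A.Z over 76.3%, and JAK2 and BBC3 had unchanged domains. Among 102 homeobox genes, EN1 was lost, HOXB2 and HOXB4 were gained, and HOXB3 and HOXB6, in 1 domain, and SIX4 were unchanged. The list of FOX, SOX and related developmental regulators had 8 of 72, with SOX18 and TBX6 lost, FOXD1 and DACH1 gained and 4 unchanged. Of 41 AP-1 and immediate early genes, IER2 and IER3 were gained and FOSL2 was unchanged. KAT5 and ING3, of the TIP60 complex, were unchanged among 26 genes of the TIP60 and SRCAP complexes. The SAGA and chromatin list had 4 of 49, with SF3B3 gained and 3 unchanged, and SNHG32 was gained among 24 small nucleolar RNA host genes. None of the 78 ribosomal protein genes had a broad promoter domain, and EP400 itself had none within 10 kb.

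Motif matches were counted in the central 300 bp of each domain on both strands. Away from TSSs, AGATAA or TTATCT was found in 24.2% of gained (20.9 to 27.8%), 16.3% of lost (13.2 to 20.1%) and 23.5% of unchanged domains, compared with 17.2% of all H2A.Zac regions away from TSSs. In regions under 2500 bp it was found in 20.7% of gained, 13.99% of lost and 17.2% of unchanged regions. TGANTCA, a palindromic pattern, was found in 16.6% of gained (13.8 to 19.8%), 13.4% of lost (10.5 to 16.9%) and 14.2% of unchanged domains, against 11.5% of all such regions. Its shares in regions under 2500 bp were 14.0% of gained, 9.35% of lost and 11.4% of unchanged regions. CACGTG, the E-box of MYC and related factors, was found in 2.68% of gained (1.66 to 4.32%), 5.44% of lost (3.68 to 7.97%) and 4.23% of unchanged domains, against 5.84% of all. For both of these motifs the intervals of gained and lost domains overlapped. In regions under 2500 bp CACGTG was found in 2.74% of gained and 8.77% of lost regions. GC content differed between the classes in the same domains, and its part in these shares was not tested.

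The balance of directions differed between chromosomes. Gained domains made up 82.1% of changed broad domains on chromosome 18 (23 of 28), 78.3% on chromosome 13, 76.3% on chromosome 6 and 76.2% on chromosome 5. Over H2A.Zac regions of any width the gained shares there were 54.4%, 59.5%, 55.7% and 54.9%. The lowest shares among broad domains were 21.6% on chromosome 19 (8 of 37), 30.8% on chromosome 20 and 39.0% on chromosome 12. Regions of any width had 36.7%, 25.6% and 46.1% there. The interval of the broad domains held the value for all regions on chromosomes 12 (27.6 to 51.7%), 13 (58.1 to 90.3%), 19 (11.4 to 37.2%) and 20 (16.5 to 49.99%, 8 of 26). It did not on chromosomes 5 (67.2 to 83.3%), 6 (68.5 to 82.7%) and 18 (64.4 to 92.1%). Nor did it on chromosome 7, with 61.7% (51.6 to 70.9%) among broad domains and 49.4% over all regions. The intervals treat neighbouring domains as independent and are no test of a chromosome. In windows of 20 Mb from the start of each chromosome, 58 windows held at least 10 changed broad domains, and in 7 of them at least 90% went in 1 direction. Mostly gained were 5 of the 7, with 18 gained and 1 lost between 140 and 160 Mb of chromosome 5, where ADAM19 lies, and 11 gained and 0 lost between 140 and 160 Mb of chromosome 4, where DCHS2 lies. Mostly lost were 2, with 18 lost and 1 gained from 40 to 60 Mb of chromosome 19 and 9 lost and 1 gained from 40 to 60 Mb of chromosome 8. H2A.Zac regions of any width leaned the same way in these windows, least in that of chromosome 17. Gained ones were 72.2% of changed regions in the window of chromosome 5 and 58.4% in that of chromosome 4. From 20 to 40 Mb they were 61.6% on chromosome 7 and 53.4% on chromosome 17, and from 0 to 20 Mb of chromosome 8 68.5%. The mostly lost windows had 28.4% (chromosome 19) and 39.3% (chromosome 8, 40 to 60 Mb). Without these 7 windows, which were picked for their direction, gained domains were 58.1% of changed domains. The cause of the one-sided windows was not tested.

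**Figure D5:**
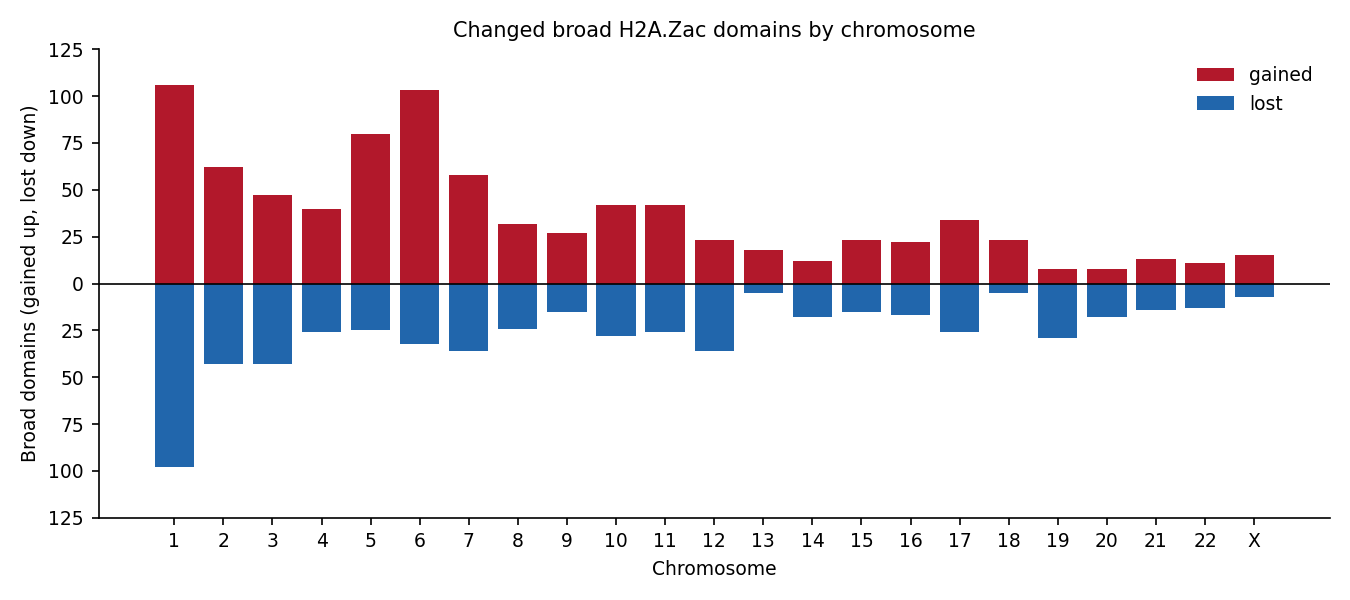
Number of gained (red, upward) and lost (blue, downward) broad H2A.Zac domains on each chromosome. Chromosomes 5, 6, 13 and 18 hold more than 3 gained for each lost domain, whereas chromosomes 12, 14, 19, 20, 21 and 22 hold more lost than gained domains.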

How the data were processed

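The authors aligned reads to hg38 with Bowtie2 (version 2.4.5), called peaks with MACS2 (version 2.2.7.1), pooled the 2 replicates of each library and ran the bdgdiff step of MACS2 between the lines. They kept regions with at least 25% of their length in reproducible peaks (IDR of at most 0.05). The 6 deposited lists, 3 per mark, hold coordinates and a score, the authors' log10 likelihood ratio. No read counts were used here. H2A.Zac regions of at least 2500 bp were kept. Distances were taken to gene starts of GENCODE release 44, overlaps from merged intervals, and base composition from hg38, with Python 3.11.15, pandas 2.3.3 and numpy 2.4.6. The study itself names an earlier GENCODE release, so its TSSs can differ from those used here. Covered bases were checked against bedtools 2.31.1 (0 of 94211 regions differed), and distances were tested on simulated data. Intervals are 95% Wilson intervals, for counting error only. Named per class were the 8 widest domains over a protein-coding TSS, the 5 with the highest score (changed classes), the 3 widest over 10 kb from a TSS, genes with 4 or more domains, members of 11 gene lists, and CCND1, DACH1 and EP400. An item picked by this rule is not reported here. Members, lists and rules were chosen with earlier results of these data known.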

Additional observations from a re-analysis of the deposited data

Results flagged for a closer look

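Outside chromosomes 1 to 22 and X, 13 further H2A.Zac regions reached 2500 bp, in a total of 375 regions there. They were not used in the comparisons and drew attention as signal in data left aside. Of the 13, 2 were lost, 6 gained and 5 unchanged, with widths of 2527 to 4948 bp. The share of regions this wide was 3.47%, compared with 2.71% on chromosomes 1 to 22 and X.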

How the results depend on the processing

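No paired analysis was possible because the lists hold merged replicates, and for the same reason no replicate could be left out. The main shares were 58.6% gained of changed, 56.7% changed, 39.0% near a TSS and 63.7% with H2A.Z. With a minimum width of 2000 bp there were 5640 domains, and the shares were 55.8%, 51.7%, 41.0% and 67.9%. At 3000 bp there were 1278 domains, with 60.3% changed, 37.0% near a TSS and 61.0% with H2A.Z, and at 4000 bp there were 359, with 68.5%, 32.6% and 56.0%. Merging regions within 150 bp gave 6225 domains and shares of 61.3%, 43.4%, 52.0% and 73.6%. A likelihood ratio cutoff of 10 gave 53.9% gained of changed and 45.2% changed, and a cutoff of 5 could move no domain, since the lowest ratio of a changed domain was 5.17. The share near a TSS was 27.8% with protein-coding genes, 47.3% with all transcripts, 33.1% with the TSS inside and 42.5% within 2 kb. The share with H2A.Z was 73.6% for 1 shared base and 46.6% for 50% of the length. Of 3 alternatives chosen after seeing the data, restricting to domains with no other class within 150 bp gave 53.1% gained of changed, 69.8% changed and 30.3% near a TSS. Leaving out chromosomes 19 and 20, or the 7 one-sided windows, kept the 4 shares within the intervals of the main values, as did each chromosome left out. The cause of these shifts was not tested.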

Other observations

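Broad regions were rarer in the lists of total H2A.Z than in those of H2A.Zac. Of the H2A.Z regions, 558 (0.884%) reached 2500 bp, against 2.71% of the H2A.Zac regions, and the widest measured 7544 bp. Of the 558, 72 were lost, 59 gained and 427 unchanged, so 23.5% were changed, where 19.9% of all H2A.Z regions were lost and 14.1% gained (34% changed). Of the broad ones 56.1% lay within 1 kb of a TSS. At least 25% of the length lay in H2A.Zac regions in 90.7% of them, and 44.4% touched a broad H2A.Zac domain.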
